A study of Mus musculus with 6 samples.

Results

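The genes described are 4 sodium channel subunit genes, Scn4a, Scn7a, Scn10a and Scn4b, and 2 genes of HCN pacemaker channels, Hcn2 and Hcn4. They were taken by name from the 38293 genes of the deposited count table, and all 6 of them were among the 14746 genes that passed the filter on low counts. They are set beside 9 other genes of the sodium channel and HCN families. RNA depleted of ribosomal RNA was sequenced from heart tissue of 3 Zeb2 fl/fl mice and 3 Zeb2 cKO mice, 14 days after permanent occlusion of the left anterior descending artery. Both groups were adult male mice on a backcrossed C57BL/6J background and carried floxed Zeb2 alleles. Only Zeb2 cKO mice also carried a Cre recombinase driven by the Myh6 promoter, which is active in cardiomyocytes, so the effect of Cre itself and that of the deletion cannot be told apart. The sample labels call the Zeb2 fl/fl group WT and place the tissue in the border region of the infarct, whereas the methods of the study name the remote zone.

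Voltage-gated sodium channels open on depolarisation and carry the inward sodium current of the upstroke of the action potential. The pore is formed by an alpha subunit. Beta subunits such as Scn4b are small membrane proteins with an immunoglobulin-like domain that adjust channel gating and surface level. HCN channels open on hyperpolarisation, are tuned by cyclic AMP and carry the mixed sodium and potassium current known from pacemaker cells. Hcn4 is the main HCN gene of the sinoatrial node and the conduction system, and Hcn2 is the one best known from ventricular myocardium.

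The promoter sequences of 4 of the genes are shown, as examples of both families, because the deleted factor, ZEB2, binds E-box sequences with the core CACCT. Scn7a was highest and the other 3, like Scn10a and Scn4b, which are not printed, were lowest in the same library, as described further on. RefSeq (GRCm38.p6) gave a promoter window of 300 bases, 250 before and 50 after the start, for all 6 genes. Capitals mark CACCT or its reverse complement AGGTG, and in Hcn2 the longer CAGGTG. The windows are chr11:106349341-106349640 (minus strand), chr2:66784861-66785160 (minus strand), chr10:79716384-79716683 (plus strand) and chr9:58822699-58822998 (plus strand), each printed 5′ to 3′ on the strand of its gene.
Scn4a: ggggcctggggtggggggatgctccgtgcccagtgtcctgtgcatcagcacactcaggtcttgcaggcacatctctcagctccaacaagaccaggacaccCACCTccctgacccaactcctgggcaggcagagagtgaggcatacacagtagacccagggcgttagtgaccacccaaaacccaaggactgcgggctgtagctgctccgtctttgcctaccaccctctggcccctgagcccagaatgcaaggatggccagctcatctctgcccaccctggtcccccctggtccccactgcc
Scn7a: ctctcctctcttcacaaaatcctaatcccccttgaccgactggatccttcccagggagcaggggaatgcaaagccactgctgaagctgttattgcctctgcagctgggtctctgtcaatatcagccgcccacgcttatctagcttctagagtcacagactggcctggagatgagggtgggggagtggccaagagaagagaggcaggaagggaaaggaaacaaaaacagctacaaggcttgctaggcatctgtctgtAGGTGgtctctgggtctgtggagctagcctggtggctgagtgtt
Hcn2: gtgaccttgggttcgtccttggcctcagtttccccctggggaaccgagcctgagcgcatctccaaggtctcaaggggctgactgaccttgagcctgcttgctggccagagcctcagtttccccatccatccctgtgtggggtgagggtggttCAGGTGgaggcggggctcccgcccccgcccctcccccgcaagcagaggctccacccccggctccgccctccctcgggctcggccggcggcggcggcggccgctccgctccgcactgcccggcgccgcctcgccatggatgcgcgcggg
Hcn4: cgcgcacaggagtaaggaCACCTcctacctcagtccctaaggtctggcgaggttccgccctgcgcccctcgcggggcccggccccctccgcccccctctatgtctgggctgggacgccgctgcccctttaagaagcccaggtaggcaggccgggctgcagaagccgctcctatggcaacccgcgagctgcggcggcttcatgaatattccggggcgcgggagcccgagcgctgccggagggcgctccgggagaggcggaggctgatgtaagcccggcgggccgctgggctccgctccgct

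Each of the 6 windows held CACCT exactly once on either strand, and 51.9% of 32851 such windows in the genome held it at least once. The longer CACCTG, searched on both strands and containing CACCT, was in the Hcn2 window alone among the 6 genes, with its first base 98 bases before the start, and in 20.2% of all windows. The match lay 150 bases before the start in Scn4a, 98 before it in Scn4b and 232 before it in Hcn4, whereas it began at base 7 of the transcript in Scn7a and at base 8 in Scn10a. These matches are letters in a window and no binding was measured. The starts given by RefSeq for Scn4a, Scn7a, Scn10a and Scn4b lie inside the spans that Gencode gives to these genes, that of Scn7a close to the edge. The Hcn4 window lies wholly before the Gencode start of the gene.

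Scn4a (ENSMUSG00000001027) lies on chromosome 11 of GRCm38 from 106318592 to 106353288 and Scn7a (ENSMUSG00000034810) on chromosome 2 from 66673425 to 66784914, both on the minus strand. Hcn2 (ENSMUSG00000020331) lies on chromosome 10 from 79716634 to 79736108 on the plus strand. The other 3 genes share chromosome 9, where Scn10a (ENSMUSG00000034533) runs from 119608456 to 119719322 on the minus strand, Scn4b (ENSMUSG00000046480) from 45138395 to 45154152 and Hcn4 (ENSMUSG00000032338) from 58823412 to 58863175, both on the plus strand. None of the 6 genes overlapped another annotated gene, and their longest transcripts shared no stretch of at least 75 bases at 95% identity or more with other genes.

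Library totals ran from 37288174 to 51136331 counts, of which 14301225 to 19024394 lay outside mitochondrially encoded genes. The targeted gene Zeb2 measured 61.3, 116 and 71.9 CPM with floxed alleles alone and 59.6, 72.6 and 66.5 CPM with Cre, with overlapping groups and a log2 fold change of -0.33 (standard error 0.25, edgeR adjusted p = 0.957), so its level in this tissue does not tell the genotypes apart. CPM are each gene's counts scaled to a common library size after TMM normalization, and tissue RNA holds every cell type, not cardiomyocytes alone. Cardiomyocyte identity was clear in every library, with 12 marker genes such as Myh6 and Tnnt2 summing to between 13160 and 27150 CPM. Zeb2 fl/fl replicate 2 stood apart from the other libraries. Its 8 fibroblast markers summed to 8801 CPM against 1503 and 1837 CPM in the other Zeb2 fl/fl libraries and 1614 to 1955 CPM in Zeb2 cKO libraries. Its 7 macrophage markers summed to 395 CPM against 121 to 165 CPM elsewhere, and its cardiomyocyte markers to 13160 CPM against 21320 CPM or more. The log2 fold change of each of the 6 genes is therefore given with and without that library. In tissue RNA, fewer cells of a type and less RNA per cell cannot be told apart.

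Subunit levels were compared per length, as RPKM, which are CPM divided by the kilobases of annotated exon of the gene. Averaged over the 6 libraries, Scn7a was at 6.79 ± 3.06 RPKM (SD, n = 6), Scn4b at 6.37 ± 2.56, Hcn2 at 2.74 ± 0.924, Scn4a at 2.18 ± 0.794, Hcn4 at 0.369 ± 0.161 and Scn10a at 0.0484 ± 0.0310 RPKM. The order of Scn7a and Scn4b was not settled, since Scn7a was above Scn4b in only 2 of 6 libraries (mean log2 level ratio 0.11 ± 1.05, SD; exact sign-flip permutation test, two-sided p = 0.938). Scn4b was above Hcn2 in 6 of 6 libraries, with a mean log2 level ratio of 1.22 ± 0.467 (exact sign-flip permutation test, p = 0.0312).

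Hcn2 exceeded Scn4a in 5 of 6 libraries by a mean log2 level ratio of 0.37 ± 0.254, which did not pass the test (exact sign-flip permutation test, p = 0.0625). Scn4a lay above Hcn4 in all 6 libraries with a ratio of 2.58 ± 0.356, and Hcn4 above Scn10a in all 6 with a ratio of 2.99 ± 0.901, each with the smallest p that 6 libraries can give, 0.0312 (exact sign-flip permutation test). Adjusted over the 5 neighbouring pairs, those 3 values of 0.0312 became 0.0521.

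**Figure D1:**
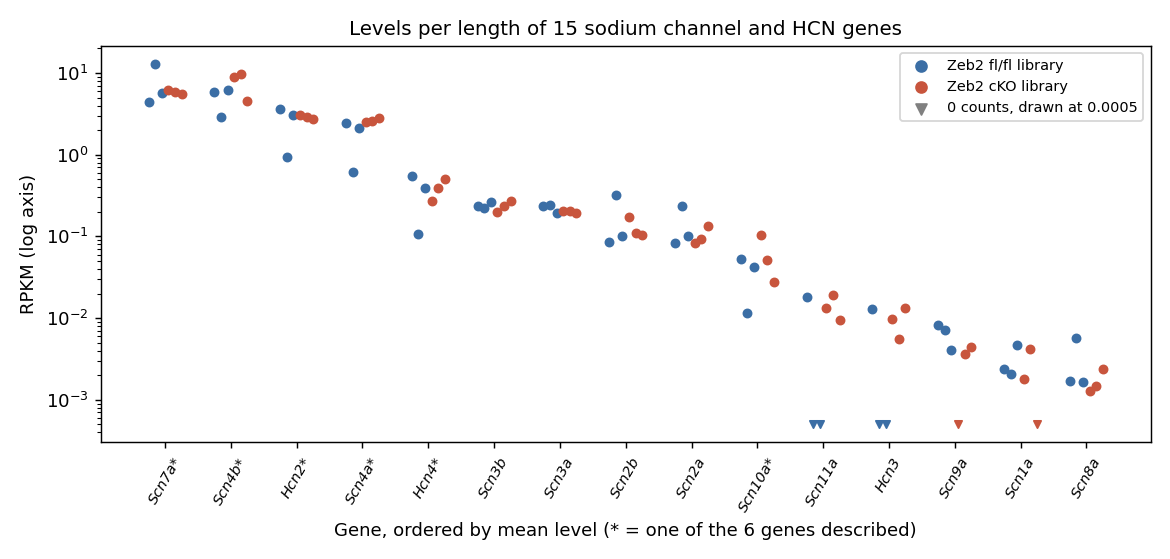
Levels of 15 sodium channel and HCN genes in RPKM on a log axis, one point per library, blue for Zeb2 fl/fl and red for Zeb2 cKO, with triangles for libraries at 0 counts. Scn7a and Scn4b lead at means of 6.79 and 6.37 RPKM, and Scn10a, at 0.0484 RPKM, is the lowest of the 6 genes marked by an asterisk.

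The question of the genotype comparison is which genes differ after infarction when Zeb2 is deleted in cardiomyocytes. In the 6 channel genes, 0 passed an adjusted p of 0.05 in either direction by the quasi-likelihood test of edgeR, adjusted after Benjamini and Hochberg over the whole table, where the background was 0% higher and 0% lower of the 14746 genes. At an unadjusted p under 0.05 there were also 0 of the 6, beside 153 higher genes (1.04%) and 127 lower genes (0.861%) in the whole table, and DESeq2 called 0 of the 6 by either measure. The fitted difference was above 0 in 5 of the 6 genes and below 0 in Scn7a, where 48.6% of all tested genes were above 0 and 51.4% below it. The median over the 6 was 0.40 on the log2 scale and over all tested genes -0.0069. Without Zeb2 fl/fl replicate 2, 4 were above and 2 below 0, with a median of 0.21, and 0 of the 6 had an unadjusted p under 0.05 (edgeR), beside 2.63% of the genes tested there.

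**Figure D2:**
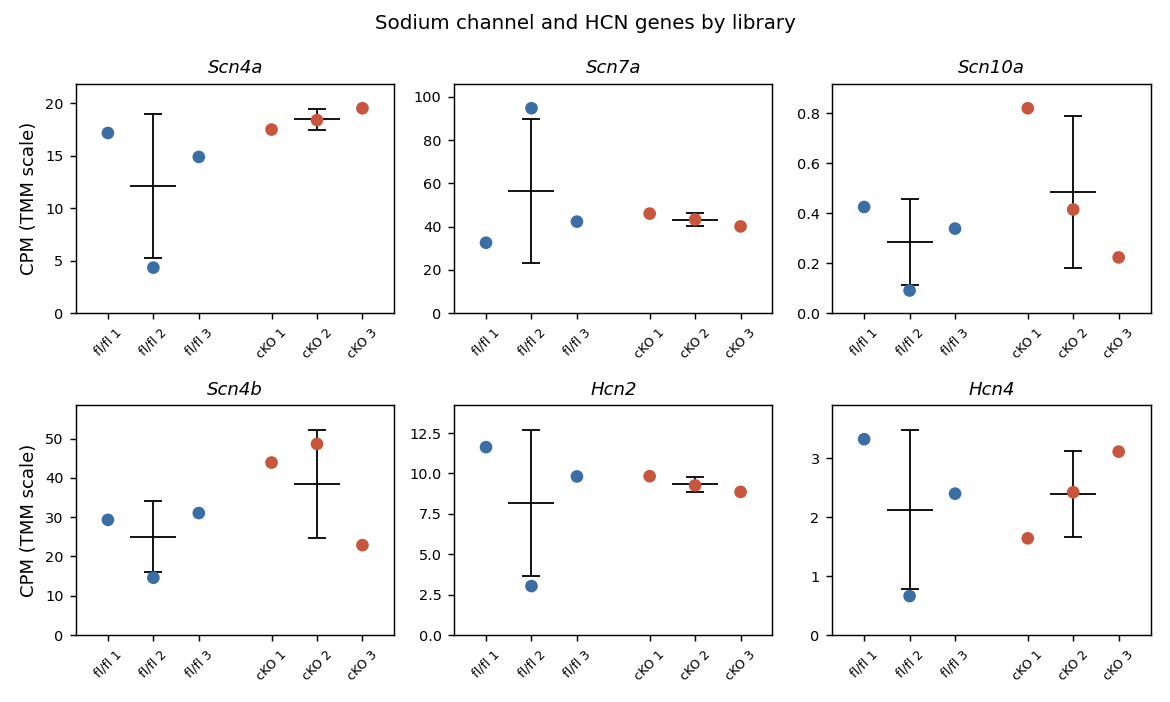
CPM of the 6 genes in each library on linear axes that start at 0, blue for Zeb2 fl/fl and red for Zeb2 cKO, with black bars for the mean and SD of 3 libraries. Zeb2 fl/fl replicate 2 is the lowest library for Scn4a, Scn10a, Scn4b, Hcn2 and Hcn4 and the highest for Scn7a, at 94.7 CPM.

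In Zeb2 fl/fl replicates 1, 2 and 3, Scn4a measured 17.2, 4.35 and 14.9 CPM, compared with 17.5, 18.4 and 19.5 CPM for replicates 1, 2 and 3 of Zeb2 cKO. It was the only one of the 6 genes in which all Zeb2 cKO libraries lay above all Zeb2 fl/fl libraries, as did 3.39% of all tested genes, while 6.36% had groups that did not overlap in either direction. The nearest libraries, Zeb2 fl/fl replicate 1 and Zeb2 cKO replicate 1, differed by less than counting error, with 95% exact Poisson intervals of 15.9 to 18.6 and 16.4 to 18.7 CPM that cover counting error only.

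Scn4a averaged 12.1 ± 6.84 CPM without Cre and 18.5 ± 1.02 CPM with it (SD, n = 3 each). The log2 fold change was 0.61 (standard error 0.45, 95% interval -0.45 to 1.67, edgeR adjusted p = 0.957), and the exact permutation test gave a two-sided p of 0.1, the smallest that 3 against 3 allow. Once Zeb2 fl/fl replicate 2 was left out, the estimate was 0.21 (standard error 0.11). The groups of Scn4a still did not overlap then, with Zeb2 cKO higher as in 8.07% of the genes tested without that library, where 7.48% were lower without overlap. Markers of skeletal muscle were read beside Scn4a, since it encodes the alpha subunit best known from that tissue. The 9 markers summed to 20.2, 9.78 and 18.6 CPM in the floxed group against 38.4, 20.4 and 32.7 CPM after deletion, and thus did not overlap either. Nearly all of that sum was Mybpc2, a myosin binding protein, which ran from 8.45 to 19.4 CPM in the former and from 19.4 to 37.0 CPM in the latter. Of the other tested markers, Tnni2 was at 0.159, 0.273 and 0.156 CPM against 0.380, 0.323 and 0.335 CPM, also without overlap (log2 fold change 0.80). Tnnt3 was at 0.14 with overlapping groups. The defining skeletal muscle myosins Myh1, Myh2 and Myh4 were each at 0.137 CPM or less in every library. The part of skeletal muscle RNA in the Scn4a level was not tested.

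Scn7a encodes an atypical alpha subunit known as a sensor of sodium concentration and expressed in peripheral glia. For Scn7a the Zeb2 fl/fl libraries gave 32.6, 94.7 and 42.3 CPM, and those of Zeb2 cKO gave 46.0, 43.3 and 40.1 CPM. Zeb2 fl/fl replicate 2 was the highest and replicate 1 of that group the lowest, with all Zeb2 cKO libraries between them. The group means were 56.5 ± 33.4 and 43.2 ± 2.96 CPM (SD, n = 3 each), and the log2 fold change of -0.39 (95% interval -1.29 to 0.51, adjusted p = 0.957 from edgeR) turned to 0.21 without Zeb2 fl/fl replicate 2 (standard error 0.13). The high library was the one with the most fibroblast and macrophage marker RNA. It also had the highest sum of the 8 Schwann cell markers, at 11.2 CPM against 6.91 to 10.2 CPM in the other 5 libraries, and the part of these cell types in the Scn7a level was not tested.

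Scn10a, an alpha subunit best known from sensory neurons, rested on few reads: 16, 4 and 13 counts in Zeb2 fl/fl and 41, 18 and 12 counts in Zeb2 cKO replicates. In CPM these were 0.425, 0.0911 and 0.339 against 0.819, 0.415 and 0.223, and the groups overlapped. Exact Poisson intervals (95%) ran from 0.0248 to 0.233 CPM in Zeb2 fl/fl replicate 2 and from 0.588 to 1.11 CPM in Zeb2 cKO replicate 1, so these extremes differed beyond counting error. Its log2 fold change was the largest of the 6 at 0.78, with the widest interval (95%, -0.76 to 2.33, adjusted p = 0.957 from edgeR), and it was 0.17 without Zeb2 cKO replicate 1 and 0.35 without Zeb2 fl/fl replicate 2. Of 7 neuron markers, which summed to 3.94 to 5.58 CPM over all libraries, Chat was at 0 counts in every library.

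Replicates 1, 2 and 3 of Zeb2 fl/fl held Scn4b at 29.3, 14.6 and 31.0 CPM, and those of Zeb2 cKO at 43.9, 48.6 and 22.9 CPM. Zeb2 cKO replicates 1 and 2 were the highest of the 6 libraries, whereas replicate 3 lay below 2 of the Zeb2 fl/fl libraries. The means were 25.0 ± 9.04 and 38.5 ± 13.7 CPM (SD, n = 3 each). The fitted log2 fold change was 0.62 (95% interval -0.25 to 1.5, adjusted p = 0.957 from edgeR) and of 0.35 without Zeb2 fl/fl replicate 2 (standard error 0.29). Scn4b varied as much within Zeb2 cKO, 2.13-fold from the lowest to the highest library, as within Zeb2 fl/fl hearts, also 2.13-fold.

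Hcn2 reached 11.6, 3.03 and 9.82 CPM in the floxed mice, compared with 9.83, 9.26 and 8.86 CPM after deletion. Outside Zeb2 fl/fl replicate 2 its levels thus stayed within a narrow range, and the 3 Zeb2 cKO libraries differed by 1.11-fold at most. Its log2 fold change was 0.19 (95% interval -0.84 to 1.23, adjusted p = 0.962 from edgeR) with all libraries and -0.20 (standard error 0.12) without that library. For Hcn4 the floxed mice gave 3.32, 0.661 and 2.40 CPM, and the mice with Cre gave 1.64, 2.42 and 3.11 CPM, so that the highest and the lowest library were both Zeb2 fl/fl. Its log2 fold change was 0.18 (95% interval -1.11 to 1.46, adjusted p = 0.972 from edgeR), -0.25 without Zeb2 fl/fl replicate 2 and -0.064 without Zeb2 cKO replicate 3. Since Hcn4 is also known from atrial and nodal tissue, atrial markers were read beside it. Those 5 genes summed to 340, 718 and 313 CPM in the floxed group and to 191, 149 and 193 CPM after deletion, without overlap. Nearly all of that sum was Nppa, a natriuretic peptide gene also known from stressed ventricle, at 337, 717 and 309 CPM against 189, 132 and 188 CPM. The other 3 tested atrial markers had fitted differences above 0, at 2.38 for Myl7, 1.25 for Myl4 and 2.39 for Sln, with overlapping groups and the highest level of each in Zeb2 cKO replicate 2, and Bmp10 was at 0 counts in every library. None of the 4 tested markers passed an adjusted p of 0.05 (edgeR). The part of atrial RNA in the Hcn4 level was not tested.

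**Figure D3:**
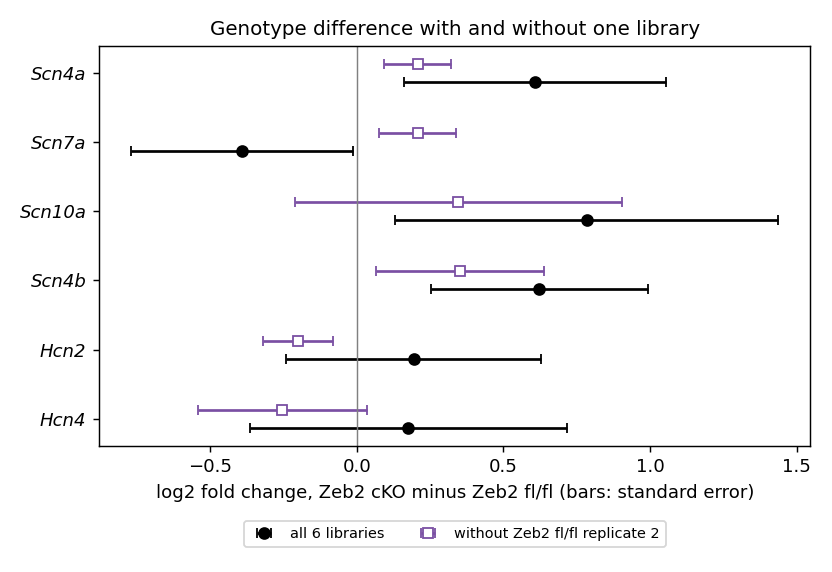
Log2 fold change of each gene, Zeb2 cKO minus Zeb2 fl/fl, with standard errors, from all 6 libraries (filled circles) and without Zeb2 fl/fl replicate 2 (open squares). Without that library Scn4a moves from 0.61 to 0.21 and Scn7a, Hcn2 and Hcn4 change sign.

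Among all tested genes the log2 fold changes of Scn10a, Scn4b and Scn4a stood at percentiles 99.0, 98.1 and 98.0 with all libraries and at 93.2, 93.3 and 86.5 without Zeb2 fl/fl replicate 2. Those of Hcn2 and Hcn4 moved from percentiles 83.4 and 81.1 to 11.7 and 8.35, and that of Scn7a from 11.7 to 86.4. Each change of place came from leaving out the same library.

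Ratios between subunits within a library do not depend on how the library is scaled. Per length, the log2 level ratio of Hcn4 to Hcn2 was -2.74, -3.12 and -2.97 in Zeb2 fl/fl and -3.52, -2.87 and -2.45 in Zeb2 cKO libraries, a genotype difference of -0.0019 (exact permutation test, two-sided p = 1). In Zeb2 fl/fl replicate 2 the ratio thus lay within the range of the other libraries, although both genes were at their lowest there. For Scn4a to Scn7a the ratio was -0.86, -4.38 and -1.45 in Zeb2 fl/fl and -1.34, -1.17 and -0.98 in Zeb2 cKO libraries (difference 1.07, exact permutation p = 0.6). For Scn10a to Scn7a the difference was 1.03 (exact permutation p = 0.6), and for Scn4b to the sum of Scn4a, Scn7a and Scn10a it was 0.71 (exact permutation p = 0.5). Adjusted over the 4 ratios the values were between 0.8 and 1. Without Zeb2 fl/fl replicate 2 the differences were -0.0079 for Scn4a to Scn7a and -0.067 for Scn10a to Scn7a, and that of Scn4b to the sum of the 3 alpha subunits was 0.068.

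Levels were also set against the 12 cardiomyocyte markers of the same library, per 10000 CPM of their sum. Scn4b was then at 10.8, 11.1 and 13.4 in Zeb2 fl/fl and 16.99, 20.1 and 10.7 in Zeb2 cKO libraries, so that Zeb2 fl/fl replicate 2 no longer stood apart. Hcn2 was at 4.28, 2.30 and 4.23 against 3.81, 3.82 and 4.16, and Hcn4 at 1.22, 0.502 and 1.03 against 0.634, 0.998 and 1.46, where that library stayed the lowest. On the same scale Scn4a was at 6.33, 3.31 and 6.42 in Zeb2 fl/fl and at 6.78, 7.60 and 9.17 in Zeb2 cKO libraries, again without overlap. The share of all genes without overlap on this scale was not determined, so how unusual this is cannot be said. Scn7a was at 72.0 in Zeb2 fl/fl replicate 2 and between 12 and 18.8 in the other 5 libraries.

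**Figure D4:**
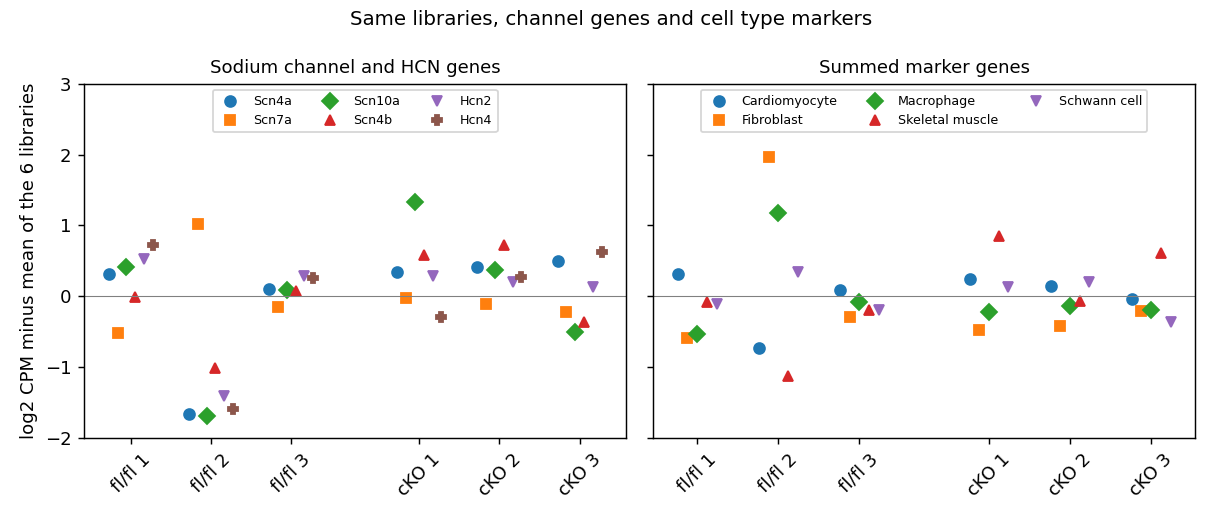
Left, log2 CPM of the 6 genes minus their mean over the 6 libraries, and right, the same for the summed CPM of 5 marker lists. In Zeb2 fl/fl replicate 2, Scn4a, Scn10a, Scn4b, Hcn2 and Hcn4 lie between 1.01 and 1.69 below their means and Scn7a 1.02 above its mean, beside low cardiomyocyte and high fibroblast and macrophage sums.

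The genes most like each of the 6 were sought by the root mean square difference of log2 CPM, centred on the mean of the 6 libraries, among 12231 genes with at least 1 CPM on average. For Hcn2 they were Fhod3, a formin of the sarcomere (0.0952), Myo18b, an unconventional myosin of striated muscle (0.102), and Mhrt, a noncoding RNA of the Myh7 locus (0.103), where Hcn2 itself had a spread of 0.643 about its mean. Potassium channel genes of the Kcna family headed other lists, Kcna1 for Scn4b (0.101, against a spread of 0.580) and Kcna5 for Hcn4 (0.117, against 0.780). Prr33 and Dhrs7c followed for Scn4b, and Papln and Kif26a for Hcn4. Scn4a was nearest to Tcf15 (0.162), Mycn and Lzts1, Scn7a to Tmed3 (0.0476), Gm25791 and Gm10275, and Scn10a to Efnb3 (0.275), Gm9899 and Gpt. Kcna1 is also one of the Schwann cell markers used here. The nearest of so many genes over 6 libraries lie close by selection, and a shared function was not tested. In each of the 6 genes the largest deviation from the mean was that of Zeb2 fl/fl replicate 2, at -1.01 for Scn4b, -1.41 for Hcn2 and -1.59 for Hcn4.

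Of the 9 other genes of both families, 4 passed the filter on low counts and 0 of them passed an adjusted p of 0.05 in either direction (edgeR). All 4 had fitted differences below 0, at -0.45 for Scn2a, -0.42 for Scn2b, -0.15 for Scn3a and -0.036 for Scn3b, with a median of -0.28. Without Zeb2 fl/fl replicate 2 there were 2 above and 2 below 0, with Scn2a at 0.16 and Scn2b, a beta subunit, at 0.46. The 5 genes that did not pass, Scn1a, Scn8a, Scn9a, Scn11a and Hcn3, had at most 5 counts in any library.

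Lists of genes that work with these channels were read in the same way, and 0 genes of any list passed an adjusted p of 0.05. Among 16 tested partners and modulators of the channels, 10 were above and 6 below 0 (median 0.083). Without Zeb2 fl/fl replicate 2, 8 were above and 9 below 0 of the 17 tested there (median -0.015). The smallest p in each direction belonged to Mrvi1 at 0.27 and to Lrmp at -0.66, which encode related membrane proteins that modulate HCN4, and the groups of both overlapped. Among 14 pacemaker and conduction genes, 10 were above and 4 below 0 (median 0.087), with Cntn2, a cell adhesion gene of Purkinje fibres, at 0.41 and Gja5, a connexin of the conduction system, at 0.33. Etv1, a transcription factor of fast-conducting myocardium, was at -0.27. It measured 6.06 CPM in Zeb2 fl/fl replicate 2 against 3.27 to 3.83 CPM in the other libraries. Without that library the list stayed at 10 above and 4 below 0 (median 0.10).

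Of 9 tested transcription factors, 6 were above and 3 below 0 (median 0.047). Without Zeb2 fl/fl replicate 2 they were at 4 above and 5 below 0 (median -0.019). Tbx5, a T-box factor known to act on sodium channel genes, was at 0.34. It measured 2.69 CPM in Zeb2 fl/fl replicate 2 against 6.22 to 7.72 CPM in the other libraries. Gata6 was at -0.17, with 21.5 ± 0.574 CPM without Cre and 19.1 ± 0.598 CPM with it (SD, n = 3 each). The groups of Gata6 did not overlap, with Zeb2 cKO lower as in 2.97% of all genes tested. All 10 genes of sodium pumps and exchangers were tested, of which 7 were above and 3 below 0 (median 0.12). These counts were the same without Zeb2 fl/fl replicate 2 (median 0.045). Atp1b1, a beta subunit of the sodium pump, was at 0.28 and Nalcn, the sodium leak channel, at -1.07, a value that rested on 5.83 CPM in Zeb2 fl/fl replicate 2 against 1.22 and 1.43 CPM in the other Zeb2 fl/fl libraries. With the cardiomyocyte markers as the scale, the median of all genes moved to -0.26, so the counts above 0 shift with the scale. Above 0 were then 7 of 16 partners and 6 of 14 pacemaker and conduction genes. The same held for 2 of 9 transcription factors and 4 of 10 pumps and exchangers. The medians of these 4 lists, -0.059, -0.027, -0.17 and -0.078, all stayed above that of all genes. The 6 channel genes were at 5 above and 1 below 0 on that scale. The other tested genes of both families were all below 0 there. With the usual scale but without Zeb2 fl/fl replicate 2, the 6 channel genes were at 4 above and 2 below 0.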

How the data were processed

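Heart tissue RNA-seq libraries, 3 per genotype, were grouped by their labels. The authors aligned strand-specific single-end reads with the STAR workflow, quantified them on the Gencode M4 annotation (GRCm38) and deposited raw counts per gene without normalization. The STAR version, the strand option and the handling of multi-mapping reads are not given in the sources used here. All 6 columns were matched to samples by their description, and 0 were left unmatched. Symbols, exon lengths and coordinates came from Gencode M21 of the same build by gene identifier, and lengths are those of M21. Levels per length use TMM library sizes that include mitochondrially encoded genes.

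Counts were filtered with filterByExpr, TMM-normalized and tested with edgeR 4.0.16 (R 4.3.3) (glmQLFit, then glmQLFTest) on genotype alone, a prior count of 0.125 and Benjamini-Hochberg adjustment over all genes kept. The steps were tested on simulated data. Single genes and ratios (0.5 counts added) were compared by exact permutation tests, two-sided. Shared stretches were searched with BLAST 2.17.0. DESeq2 1.42.0 and other settings served as alternatives. The animals behind equal replicate numbers differ, and p-values measure the spread between these mice. Depth was 37288174 to 51136331 counts, of which 14301225 to 19024394 lay outside mitochondrially encoded genes. Counting error is small except where counts are few, as for Scn10a and for Hcn4 in Zeb2 fl/fl replicate 2. Genes were named by rule: the 6 genes, their families, in each further list the 2 genes with the smallest p in each direction, and the 3 genes nearest to each of the 6. Some of these genes are not reported here. Genes and lists were chosen with earlier results of these data known.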

Additional observations from a re-analysis of the deposited data

How the results depend on the processing

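In all 15 alternatives, which set the normalization, the filter, the test, dispersions, the scale, the prior count, the replicate block or the libraries used, 0 of the 6 genes and 0 genes of the other lists passed an adjusted p of 0.05. The smallest unadjusted p of the 6 (edgeR) was 0.0397 for Scn4b, without Zeb2 cKO replicate 3. Over all genes, edgeR called 0 and DESeq2 called 2, beside 280 genes at an unadjusted p under 0.05 in the reported fit, 361 with DESeq2, and 122 to 1134 over the edgeR alternatives. Those 280 were 153 higher and 127 lower, against 259 and 51 without TMM, 42 and 108 with cardiomyocyte markers as the scale, and 144 and 217 with DESeq2. Leaving out 1 library at a time gave log2 fold changes from 0.21 to 0.95 for Scn4a, -0.66 to 0.21 for Scn7a, 0.17 to 1.20 for Scn10a, 0.35 to 0.89 for Scn4b, -0.20 to 0.54 for Hcn2 and -0.25 to 0.65 for Hcn4. The signs that turned did so without Zeb2 fl/fl replicate 2, and for Hcn4 also without Zeb2 cKO replicate 3. With the cardiomyocyte markers as the scale, the median of all genes moved to -0.26, and the 6 genes ran from -0.86 (Scn7a) to 0.66 (Scn10a), with Scn4a at 0.57. The replicate block gave 0.80 for Scn4a, -0.23 for Scn7a, 0.76 for Scn10a, 0.62 for Scn4b, 0.37 for Hcn2 and 0.36 for Hcn4 and changed no call. Same-numbered libraries share only a number, with correlations of their deviations of 0.0778, -0.131 and -0.0741.

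Without mitochondrially encoded genes in the library sizes, mean levels were 6.02 RPKM for Scn4a, 18.8 for Scn7a, 0.134 for Scn10a, 17.6 for Scn4b, 7.57 for Hcn2 and 1.02 for Hcn4, by the smaller total, in the same order. The log2 level ratio of Scn7a to Scn4b ran from -0.30 to 0.28 over the libraries left out, and of the genotype differences of ratios that of Hcn4 to Hcn2 from -0.25 to 0.28, of Scn4a to Scn7a from -0.0079 to 1.75, of Scn10a to Scn7a from -0.067 to 1.75 and of Scn4b to the 3 alpha subunits from 0.068 to 1.05. With no pseudocount that of Hcn4 to Hcn2 was 0.0028. With 5 libraries a sign-flip p cannot go below 0.0625, so these say nothing of the stability of the order. Depth limits Scn10a in every library, and Hcn4 in Zeb2 fl/fl replicate 2, where 29 counts gave a 95% exact Poisson interval of 0.443 to 0.949 CPM.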
